A study of Mus musculus with 34 samples.

Results

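The forkhead and SOX genes of the mouse were followed across 4 sorted populations of mammary epithelial cells (MECs). Members were taken by symbol, every probe whose gene is named as a forkhead gene (Foxa to Foxs with a number) or a numbered Sox gene. This gave 62 genes with 123 probes, 43 forkhead genes with 77 probes and 19 SOX genes with 46, of 19057 genes with 34885 singly named probes on the array. Foxd2os, an opposite-strand transcript, was left out. The cells came from virgin MMTVrtTA/H2BGFP females of 4 weeks. The MMTVrtTA parents were FVB mice, and the H2BGFP parents came from a CD1 line backcrossed to FVB. These mice carry a histone 2B-green fluorescent protein fusion (H2BGFP) that doxycycline switches on through a transactivator under the mouse mammary tumor virus promoter. All 4 groups carried both transgenes and received doxycycline. The promoter is active in a mosaic of MECs, so GFP- cells have the same genotype and treatment without visible reporter. CD24 and CD29 (β1 integrin) divided the cells, with CD31, CD45 and Ter119 positive cells gated out, into a CD24+/CD29+ (basal, stem cell enriched) and a CD24+/CD29lo (luminal, progenitor) compartment. Of the CD24+/CD29+ arrays, 9 were GFP+ and 6 GFP-, and of the CD24+/CD29lo arrays, 9 were GFP+ and 10 GFP-. The labels do not say whether samples came from separate animals, so p-values measure the spread between these samples.

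Forkhead proteins bind DNA through a winged helix, and SOX proteins through a high mobility group box that bends the double helix. Both families work largely as cell identity factors. FOXA proteins open closed chromatin and prepare sites for steroid receptors, and Foxa1 is known in the mammary gland as a partner of the estrogen receptor in hormone-sensing luminal cells. FOXO proteins are held out of the nucleus by AKT kinases, and Foxm1 drives the genes of mitosis. Among SOX genes, Sox9 and Sox10 (SOXE) are known from cartilage, neural crest and mammary progenitors, Sox4, Sox11 and Sox12 (SOXC) from neural and mesenchymal progenitors, and Sox7, Sox17 and Sox18 (SOXF) from endothelium.

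The start-site windows of Foxa1, Foxi1 and Sox11, the 3 genes on which the results turn, are shown because forkhead and SOX genes can carry their own families' target letters. Each spans the RefSeq transcription start, with most of it upstream, and is read on the gene's strand (GRCm38.p6). Capitals mark matches on either strand to TGTTTAC (forkhead), AACAAT or AACAAAG (both SOX).
Foxa1, chr12:57546062-57546361, minus strand: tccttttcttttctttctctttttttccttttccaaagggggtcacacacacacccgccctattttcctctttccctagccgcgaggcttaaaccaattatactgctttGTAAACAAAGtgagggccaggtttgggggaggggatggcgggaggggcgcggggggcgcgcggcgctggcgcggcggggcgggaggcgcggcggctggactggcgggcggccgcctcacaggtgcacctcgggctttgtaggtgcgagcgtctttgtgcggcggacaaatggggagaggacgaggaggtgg
Foxi1, chr11:34208040-34208339, minus strand: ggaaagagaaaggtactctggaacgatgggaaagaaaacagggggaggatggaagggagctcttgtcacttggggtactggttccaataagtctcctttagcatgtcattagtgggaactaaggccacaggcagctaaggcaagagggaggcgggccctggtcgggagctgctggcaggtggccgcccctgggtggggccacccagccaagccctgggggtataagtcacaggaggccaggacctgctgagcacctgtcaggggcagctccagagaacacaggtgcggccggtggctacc
Sox11, chr12:27342669-27342968, minus strand: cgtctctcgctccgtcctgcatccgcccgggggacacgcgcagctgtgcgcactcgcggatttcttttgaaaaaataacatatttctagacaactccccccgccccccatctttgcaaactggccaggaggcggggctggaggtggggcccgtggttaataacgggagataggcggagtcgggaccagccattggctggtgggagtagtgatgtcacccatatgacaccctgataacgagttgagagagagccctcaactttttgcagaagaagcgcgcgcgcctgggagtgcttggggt
In the Foxa1 window the forkhead letters lie on the opposite strand at bases 110 to 116 and overlap AACAAAG at bases 113 to 119. The windows of Foxi1 and Sox11 hold none of the 3. Windows were at hand for 41 of the 62 genes, and TGTTTAC was found for 2 of the 41 (Foxa1 and Sox12), AACAAT for 2 (Foxp1 and Sox6) and AACAAAG for 4 (Foxa1, Foxp1, Foxp3 and Sox6). Over all 32851 windows of this length the shares were 3.65%, 10.7% and 5.85%. These shares count windows, while the member counts are by gene. The 41 genes had 51 windows, so some had more than 1 window in which to match. A match describes the letters only.

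A gene was called detected on an array where its detection p against the negative control beads was under 0.05. The share of all probes detected ran from 26.3% to 46.7% of an array, lowest in GFP+ CD24+/CD29lo replicate 22. The arrays fell into 2 sets by the median of the authors' processed values, replicates 1 to 12 (called earlier here) and 13 to 34 (called later). These names follow the replicate numbers only, since no label gives a date, and the sets need not be the study's collection dates. The GFP- CD24+/CD29+ samples were only in the later set. Lineage genes followed the gates by level, though many were detected on both sides. All 13 basal and myoepithelial genes were detected on most arrays of both CD24+/CD29+ groups, and their summed level there was 15.22 to 16.13 (log2) against 10.77 to 13.03 in CD24+/CD29lo cells. Of these genes, 9 were also detected on most GFP- and 11 on most GFP+ CD24+/CD29lo arrays. Summed luminal keratin and lineage genes were at 14.45 to 15.29 in CD24+/CD29lo cells and 11.84 to 13.32 in CD24+/CD29+ cells. All 10 were detected on most arrays of both CD24+/CD29lo groups. On most GFP- CD24+/CD29+ arrays 9 were detected, and on most GFP+ ones 8. Against CD24+/CD29lo cells, 10 of the 13 basal genes rose and 8 of 10 luminal ones fell in GFP- CD24+/CD29+ cells, and 13 rose and 9 fell in the GFP+ cells. Of 12 luminal progenitor genes, 10 fell in each. Of all genes, 6.65% rose and 6.32% fell in GFP- CD24+/CD29+ cells, and 6.74% rose and 6.19% fell in the GFP+ cells. Genes of other cells also differed, since 3 of 10 fibroblast genes (Col1a2, Col3a1 and Dcn, by 2.51 to 3.26) and 3 of 8 pericyte genes (Rgs5, Des and Mcam, by 2.73 to 3.43) rose in GFP- CD24+/CD29+ cells, and Col1a2, Dcn and Mcam in GFP+ ones, while Notch3 fell in both. Their summed levels were 8.80 to 11.31 for fibroblast and 8.99 to 11.09 for pericyte genes in CD24+/CD29+ cells, against 8.56 to 9.54 and 8.10 to 9.64 in CD24+/CD29lo cells. No macrophage gene was called, though their summed level ran up to 11.89 on a CD24+/CD29lo array. The part of these cells in the compartment differences was not tested. In such bulk samples, fewer cells of a type and less RNA per cell cannot be told apart.

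Detection ranged from no array to all 34 across the family, and the same counts over all genes were not taken. Each gene is represented by its probe of highest mean over the 34 arrays. By that probe, 8 of 62 genes were detected on no array (Foxa2, Foxe1, Foxi3, Foxl2, Foxn1, Foxr2, Sox3 and Sox15), 15 on 1 to 4 arrays, 26 on 5 to 29, and 13 on 30 or more. Foxj3, Foxk2, Foxn3, Foxp1 and Sox9 were detected on all 34. The other 8 detected on at least 30 were Foxd3, Foxj2, Foxo3, Foxp3, Sox4, Sox5, Sox10 and Sox12. In at least 1 group, 27 genes were detected on most arrays, that is on more of them than not.

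**Figure D1:**
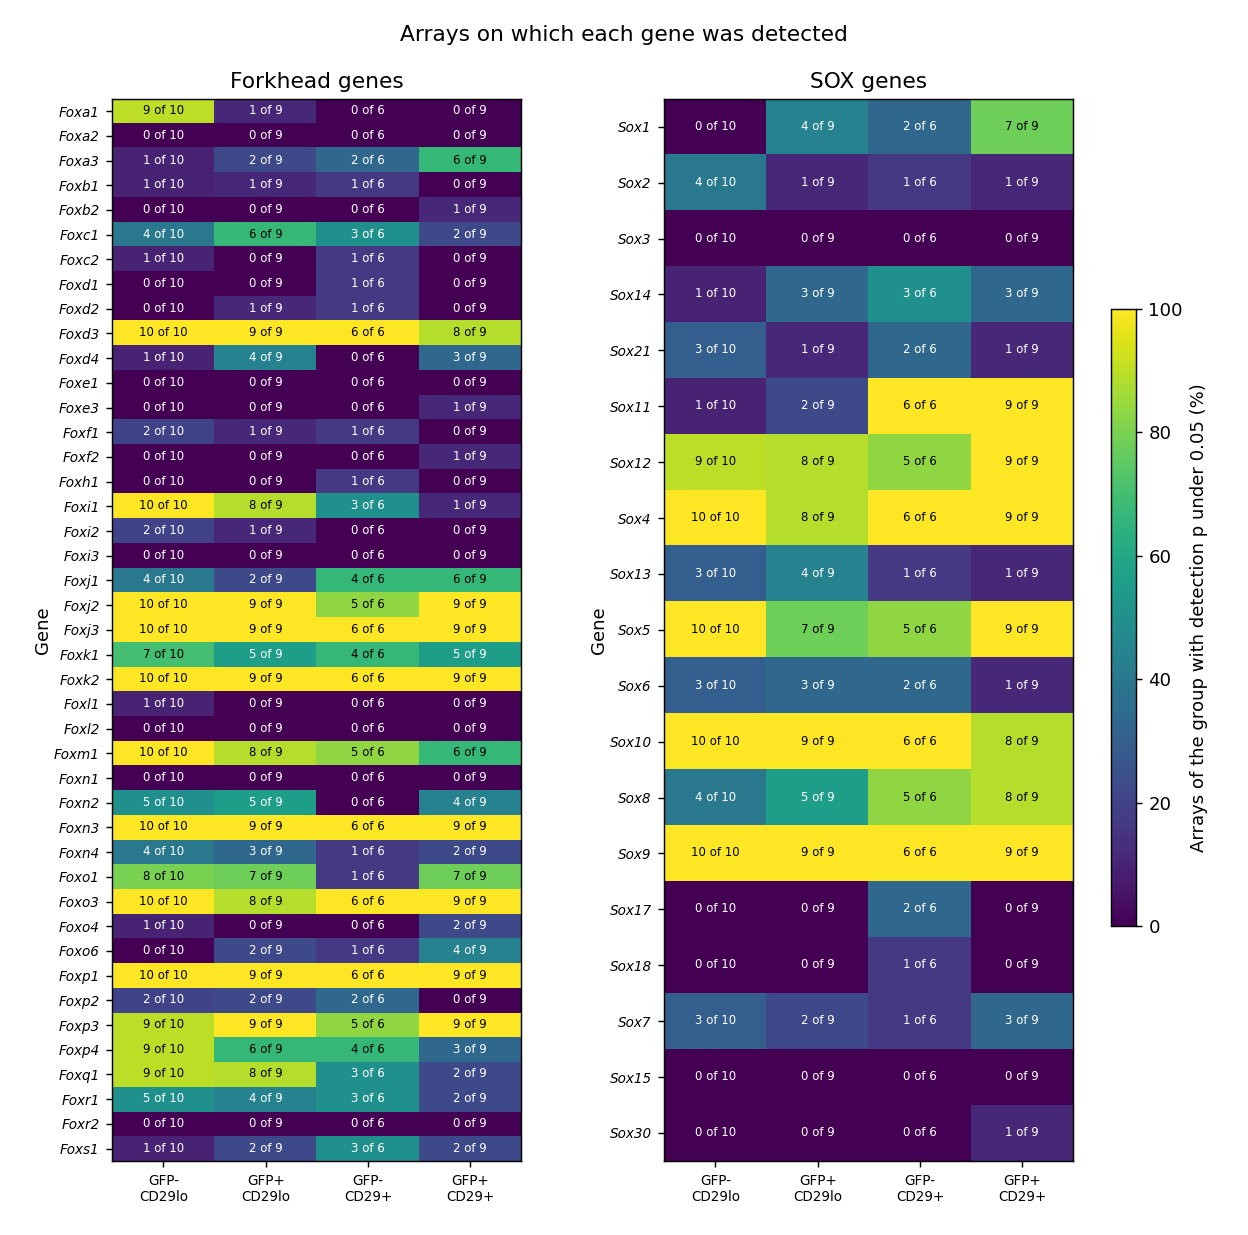
Number of arrays on which the brightest probe of each of the 62 genes was detected (detection p under 0.05), by group, with the colour giving that number as a percent of the group's arrays. Foxa1 is detected on 9 of 10 GFP- CD24+/CD29lo arrays and 1 of 24 others, and Sox11 on 15 of 15 CD24+/CD29+ arrays.

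Differences between compartments came from few members. Among GFP- cells, 5 of 55 tested members differed between CD24+/CD29+ and CD24+/CD29lo (limma, adjusted p under 0.05), against 13.0% of all 16428 genes tested. Sox11 and Foxn3 were higher in CD24+/CD29+ cells (6.65% of all genes were), and Foxa1, Foxi1 and Sox9 were lower (6.32% of all genes). Among GFP+ cells, 5 of 55 also differed, where 12.9% of all genes did. Sox11, Foxa3 and Foxp1 were higher in CD24+/CD29+ cells (6.74% of all genes) and Foxi1 and Sox10 were lower (6.19%). The members' shares lay near or below the background in both. Their median difference was 0.07 (log2) in GFP- and 0.02 in GFP+ cells, beside 0.03 and -0.01 for all genes. The 7 members that failed the filter on low values were Foxa2, Foxb1, Foxb2, Foxc2, Foxf2, Foxi2 and Foxo6.

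**Figure D2:**
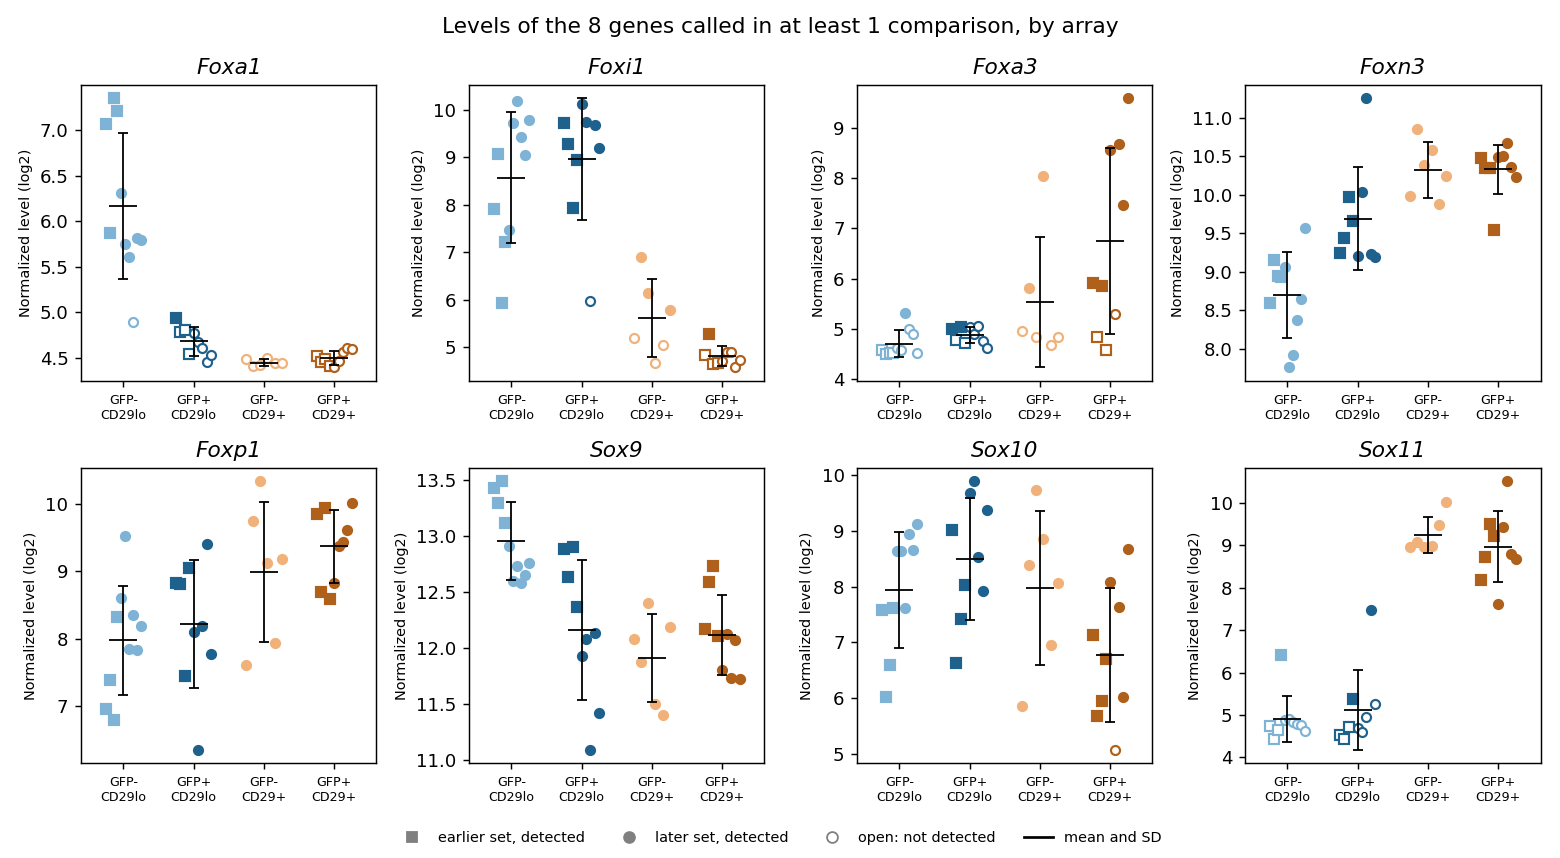
Normalized level (log2) of the 8 genes called in at least 1 comparison on each of the 34 arrays, by group. Squares are arrays of the earlier set, circles of the later set, open symbols arrays on which the gene was not detected, and black marks the mean and SD; Foxa1 stands above 5 only in GFP- CD24+/CD29lo arrays and Sox11 reaches 7.61 only in CD24+/CD29+ arrays.

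Sox11, a SOXC factor best known from developing neurons, separated the compartments with and without GFP, and its difference was the largest of the members called among GFP- cells. Its level was 8.95 to 10.02 (log2, median 9.03) in GFP- CD24+/CD29+ cells and 7.61 to 10.52 (median 8.81) in GFP+ CD24+/CD29+ cells, and it was detected on all 15 arrays. In CD24+/CD29lo cells it was 4.43 to 6.42 (median 4.78, detected on 1 of 10 arrays) without GFP and 4.43 to 7.48 (median 4.73, detected on 2 of 9) with GFP. No CD24+/CD29lo array reached the lowest CD24+/CD29+ array. The highest, GFP+ CD24+/CD29lo replicate 23, came closest.

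The Sox11 difference was 4.34 (log2, SE 0.37, adjusted p = 1.69e-10) among GFP- cells and 3.84 (SE 0.34, adjusted p = 2.19e-10) among GFP+ cells. It was 4.14 within the earlier set and 3.61 within the later set for GFP+ cells, and 4.44 within the later set for GFP- cells. The CD24+/CD29lo arrays lay mostly at background, so no fold is given, and without background correction the difference was 2.50 among GFP- and 2.19 among GFP+ cells. The other 3 Sox11 probes, dimmer than the first, were also higher in GFP- CD24+/CD29+ cells, by 1.24 to 1.90, and 1 of them by 1.48 in GFP+ cells (adjusted p = 0.0111). Sox11 did not pass between GFP+ and GFP- cells within either compartment, with differences of 0.22 (SE 0.34, adjusted p = 0.893) in CD24+/CD29lo and -0.28 (SE 0.36, adjusted p = 0.829) in CD24+/CD29+ cells.

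The other SOXC genes gave no such split. Sox4, a factor of progenitor survival, was 7.39 ± 0.82 (mean ± SD, n = 10) without and 6.82 ± 1.23 (n = 9) with GFP in CD24+/CD29lo cells. In CD24+/CD29+ cells it was 7.60 ± 1.28 (n = 6) without and 7.84 ± 1.34 (n = 9) with GFP. Sox12 ran from a mean of 6.38 to 7.48 over the groups with SDs of 1.05 to 1.36. Neither passed in any of the 5 comparisons.

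Foxi1 ran the other way. This forkhead factor is known for ionocytes of kidney, inner ear and airway. It was detected on 18 of 19 CD24+/CD29lo arrays, with levels of 5.93 to 10.18 (log2, median 9.05) in GFP- and 5.97 to 10.12 (median 9.28) in GFP+ cells. The exception was replicate 22. In CD24+/CD29+ cells it was 4.66 to 6.90 (median 5.48, detected on 3 of 6) without GFP and 4.57 to 5.28 (median 4.73, detected on 1 of 9) with GFP. The GFP+ groups did not overlap, and the GFP- groups did.

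Foxi1 was lower in CD24+/CD29+ cells by -2.95 (SE 0.54, adjusted p = 0.000161) among GFP- and by -4.15 (SE 0.49, adjusted p = 8.31e-08) among GFP+ cells. No fold is given, because Foxi1 was not detected on most CD24+/CD29+ arrays, and without background correction the values were -1.77 and -2.37. Both values held within the sets, at -3.65 in the later set for GFP- and at -4.11 and -4.18 in the earlier and later sets for GFP+ cells. Its second probe was lower as well, at -2.31 (adjusted p = 0.0112) and -2.54 (adjusted p = 0.00171). That probe was detected on 9 of 10 GFP- CD24+/CD29lo arrays and on no GFP- CD24+/CD29+ array, at least 3.23-fold higher, taking for each array of the dim group the lowest detected signal. The third probe was dim throughout, with group means of 4.69 to 5.07. Foxi2 was detected on 3 of 34 arrays and Foxi3 on none.

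Foxa1 was the only member called between GFP+ and GFP- cells. In CD24+/CD29lo cells, 1 of 47 tested members passed, where 1.47% of all genes did and 1.16% were lower. Normalized among the 19 CD24+/CD29lo arrays, Foxa1 was 4.91 to 7.37 (log2, median 5.91, detected on 9 of 10 arrays) in GFP- cells and 4.44 to 4.96 (median 4.67, detected on 1 of 9) in GFP+ cells. Only GFP- replicate 26, the array without detection, fell into the range of the GFP+ arrays. The difference was -1.53 (SE 0.26, adjusted p = 0.00373), with no fold given since the GFP+ arrays lay at background. Without background correction it was -0.61 (adjusted p = 0.0139), and on the authors' processed values -0.58 (adjusted p = 0.0012).

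The array sets bear on the size of the Foxa1 difference. GFP- CD24+/CD29lo arrays averaged 6.91 (n = 4) in the earlier and 5.75 (n = 6) in the later set, while GFP+ arrays averaged 4.77 (n = 4) and 4.60 (n = 5). The difference was -2.14 in the earlier (adjusted p = 0.0316) and -1.15 in the later set, where it did not pass (adjusted p = 0.0814).

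In CD24+/CD29+ cells Foxa1 was detected on 0 of 15 arrays, at 4.40 to 4.61. It failed the filter in both CD24+/CD29+ groups. Foxa1 thus entered the tests across compartments only through CD24+/CD29lo cells, where it was higher, which limits what their p-values show. Among GFP- cells it was lower there than in CD24+/CD29lo cells by -1.72 (SE 0.23, adjusted p = 1.18e-06), and CD24+/CD29lo cells were at least 1.94-fold higher by the floor of the dim group. That bound holds for background-corrected values, and the difference was -0.73 without the correction (adjusted p = 4.4e-06) and -0.66 on the authors' processed values (adjusted p = 4.66e-07). All GFP- CD24+/CD29+ arrays are later ones, and within the later set the difference was -1.25. The GFP- CD24+/CD29lo mean was 5.695 in the later set, against 6.17 over both sets, so part of the bound rests on the earlier arrays. Among GFP+ cells the compartments were -0.18 apart (SE 0.21, adjusted p = 0.747). The GFP difference itself differed between compartments by -1.54 (SE 0.31, adjusted p = 0.0155), 1 of 55 members, where 0.414% of all genes were called and 0.286% in this direction. Since Foxa1 was not detected in either CD24+/CD29+ group, that value rests on the CD24+/CD29lo arrays. Within the later set it was -1.16 (adjusted p = 0.0535), and without background correction -0.63 (adjusted p = 0.0426).

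Genes around Foxa1 in hormone-sensing luminal cells were read from a list of 15, of which 11 had a named probe and 10 were tested. Esr1, the estrogen receptor, fell by 2.74 with GFP in CD24+/CD29lo cells (SE 0.43, adjusted p = 0.00154), and Pgr, the progesterone receptor, fell by 1.86 (SE 0.38, adjusted p = 0.0156). None of the 10 rose, and the list's median was -0.33, beside -0.004 for all genes. Esr1 was still detected on 7 of 9 GFP+ CD24+/CD29lo arrays and Pgr on 4 of 9. Between compartments, Esr1 (-3.66), Pgr (-2.06), Xbp1 (-2.14) and Cited1 (-1.11) were lower in GFP- CD24+/CD29+ cells, and Esr1 (-1.53) and Xbp1 (-1.37), a secretory stress factor, in GFP+ CD24+/CD29+ cells.

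Genes of other cell states differed between GFP+ and GFP- CD24+/CD29lo cells, where 1.47% of all genes were called. In GFP+ CD24+/CD29lo cells, 3 of 12 luminal progenitor genes were higher (Csn3, Cd14 and Ltf, by 0.80 to 0.93), and their summed level ran from 13.93 to 14.46 against 12.95 to 13.89 in GFP- cells. Of 10 luminal keratin and lineage genes, only Muc1, a luminal mucin, was called, higher by 1.66. The median of that list was 0.07, and its summed level ran from 14.5 to 15.16 against 14.45 to 15.29 in GFP- cells. Of 13 basal genes, Acta2 was higher, by 2.61, and the summed level of the list ran from 11.05 to 13.03 against 10.77 to 12.23. Their part in the Foxa1 difference was not tested.

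The other FOXA genes did not follow Foxa1. Foxa2, an endoderm factor, was detected on no array. Foxa3, known from liver, was at 4.50 to 5.31 (log2) in GFP- and 4.62 to 5.06 in GFP+ CD24+/CD29lo cells. In GFP- CD24+/CD29+ cells it was 4.67 to 8.04 (median 4.90, detected on 2 of 6), and in GFP+ CD24+/CD29+ cells 4.57 to 9.59 (median 5.92, detected on 6 of 9). In the GFP+ group 4 of the 5 later arrays, replicates 15, 24, 28 and 32, were at 7.47 to 9.59, and in the GFP- group replicate 29 alone was high. The low arrays of both CD24+/CD29+ groups overlapped with CD24+/CD29lo cells. Foxa3 was higher by 1.87 in GFP+ CD24+/CD29+ than in GFP+ CD24+/CD29lo cells (SE 0.51, adjusted p = 0.0118). Within the later set that was 3.05 (adjusted p = 0.0041), and within the earlier set 0.41 (adjusted p = 0.48). Without background correction it was 0.95 (adjusted p = 0.0233).

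Sox9, the SOXE factor of cartilage and of several epithelial progenitors, was bright on every array. Its level was 12.58 to 13.49 (log2, median 12.83) in GFP- CD24+/CD29lo cells, above the range of GFP- CD24+/CD29+ cells (11.40 to 12.41, median 11.98). GFP+ CD24+/CD29lo cells spread from 11.09 to 12.90 (median 12.13) and GFP+ CD24+/CD29+ cells from 11.72 to 12.73 (median 12.11), and those groups overlapped. The compartments differed by -1.05 (SE 0.23, adjusted p = 0.00156) among GFP- cells and by -0.04 (SE 0.21, adjusted p = 0.957) among GFP+ cells. Within the later set, which holds all GFP- CD24+/CD29+ arrays, the difference was -0.79 among GFP- cells. Among GFP+ cells it was -0.30 in the earlier and 0.16 in the later set.

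Sox9 was lower with GFP in CD24+/CD29lo cells by -0.79 (SE 0.22), which did not pass (adjusted p = 0.117), and the difference of the GFP effect, at -1.002 (SE 0.31), did not pass either (adjusted p = 0.262). With the array set as a term, with all 34 arrays in 1 fit, or on the authors' processed values, Sox9 was called as lower in GFP+ CD24+/CD29lo cells. Within the earlier set the difference was -0.67 and within the later -0.94. Earlier arrays were brighter, at 13.31 against 12.65 in GFP- and 12.64 against 11.71 in GFP+ cells. The second Sox9 probe differed by -1.89 between the GFP- compartments (SE 0.49, adjusted p = 0.0081). All GFP- CD24+/CD29+ arrays are later ones, with a mean of 7.65 for this probe, and the GFP- CD24+/CD29lo arrays averaged 10.76 in the earlier and 8.73 in the later set, so the gap was smaller among later arrays.

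Sox10, a SOXE factor of neural crest and Schwann cells that mammary epithelium also uses, was detected on 33 of 34 arrays. In CD24+/CD29lo cells it was 6.02 to 9.14 (log2, median 8.13) without and 6.62 to 9.90 (median 8.53) with GFP. CD24+/CD29+ cells ranged from 5.86 to 9.74 (median 8.23) without and 5.06 to 8.68 (median 6.71) with GFP. All 4 ranges overlapped. Sox10 was lower in GFP+ CD24+/CD29+ than in GFP+ CD24+/CD29lo cells by -1.73 (SE 0.53, adjusted p = 0.031), with -1.41 in the earlier and -1.99 in the later set, neither past the threshold (adjusted p = 0.163 and 0.109), and -1.10 without background correction (adjusted p = 0.039). Sox10 no longer passed without any 1 of 8 arrays, replicates 2, 16, 19 and 34 of the CD24+/CD29lo and 3, 9, 17 and 28 of the CD24+/CD29+ cells, with an adjusted p of up to 0.0737. Among GFP- cells the difference was 0.04 (SE 0.59, adjusted p = 0.982), and the GFP effect on Sox10 did not pass the test between compartments (1.77, SE 0.79, adjusted p = 0.561). Sox8, the remaining SOXE gene, had group means of 4.96 to 5.71 and was not called.

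Schwann cell and neural crest genes were read beside Sox10, 12 of 14 with a probe. S100b was detected on no array. Between GFP+ compartments, 2 of 12 were lower, Erbb3 (-2.98) and Mbp (-2.71), and 2 higher, Egr2 (1.60) and Ngfr (1.35), in CD24+/CD29+ cells. Among GFP- cells 3 were higher, Cdh19 (2.21), Ngfr (2.14) and Egr2 (1.35), and 1 was lower, Erbb3 (-4.68). Of all genes, 12.9% were called among GFP+ and 13.0% among GFP- cells. The list's medians were -0.10 and 0.01, beside -0.01 and 0.03 for all genes. The list's summed level ran from 11.39 to 12.47 in CD24+/CD29lo and from 11.89 to 13.03 in CD24+/CD29+ cells, and its part in the Sox10 values was not tested.

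Foxn3, a forkhead repressor, was detected on all 34 arrays and rose from GFP- luminal to basal cells. CD24+/CD29lo cells lay at 7.76 to 9.56 (log2, median 8.79) without and 9.19 to 11.25 (median 9.44) with GFP. CD24+/CD29+ cells ranged from 9.89 to 10.85 (median 10.32) without and 9.54 to 10.67 (median 10.37) with GFP. The GFP- groups did not overlap. The highest of the GFP+ CD24+/CD29lo arrays was replicate 22, the array of lowest detected share.

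Among GFP- cells Foxn3 was higher in CD24+/CD29+ by 1.63 (SE 0.26, 3.09-fold, adjusted p = 2.68e-05), and by 1.77 within the later set. Its other 2 probes gave 1.62 and 1.12. Among GFP+ cells the brightest probe gave 0.64 (SE 0.24, adjusted p = 0.0926), while a dimmer probe passed at 0.95 (adjusted p = 0.0154). In CD24+/CD29lo cells Foxn3 was 0.99 higher with GFP (SE 0.27), which did not pass (adjusted p = 0.108), though it passed with all 34 arrays in 1 fit. The remaining FOXN genes were dim. Foxn1, the thymic epithelium factor, was detected on no array, Foxn2 on 14 and Foxn4 on 10.

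Foxp1, a forkhead repressor with roles in B cells and lung epithelium, was detected on all arrays. CD24+/CD29lo cells lay at 6.79 to 9.52 (log2, median 8.02) without and 6.35 to 9.41 (median 8.18) with GFP. CD24+/CD29+ cells ranged from 7.61 to 10.34 (median 9.15) without and 8.59 to 10.01 (median 9.43) with GFP, and all groups overlapped. The difference of 1.15 among GFP+ cells lay at the threshold (SE 0.38, adjusted p = 0.0498), and the 1.01 among GFP- cells did not pass (SE 0.42, adjusted p = 0.135). Foxp1 no longer passed without any 1 of 11 of the 18 GFP+ arrays, replicates 10, 16, 19, 22 and 34 of the CD24+/CD29lo and 1, 9, 17, 24, 28 and 32 of the CD24+/CD29+ cells, with an adjusted p of up to 0.125. Foxp4 had group means of 5.11 to 6.02, Foxp2 was detected on 6 arrays, and neither was called.

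Foxp3, the factor of regulatory T cells, gave signal on 32 of 34 arrays, with group means of 6.89 to 7.58. Its 4 probes disagreed. A second was detected on 31 of 34, and the other 2 on 2 and 0. Of the 10 T and B lymphocyte genes with a probe, Cd3d, Cd4 and Cd79b were detected on no array. Cd8a was above background on 7 of 10 arrays without and 6 of 9 with GFP in CD24+/CD29lo cells, and on 3 of 6 without and 6 of 9 with GFP in CD24+/CD29+ cells, and the summed level of the list was 7.98 to 8.79 in all groups. CD45+ cells had been gated out, and the part of lymphocytes in the Foxp3 signal was not tested.

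**Figure D3:**
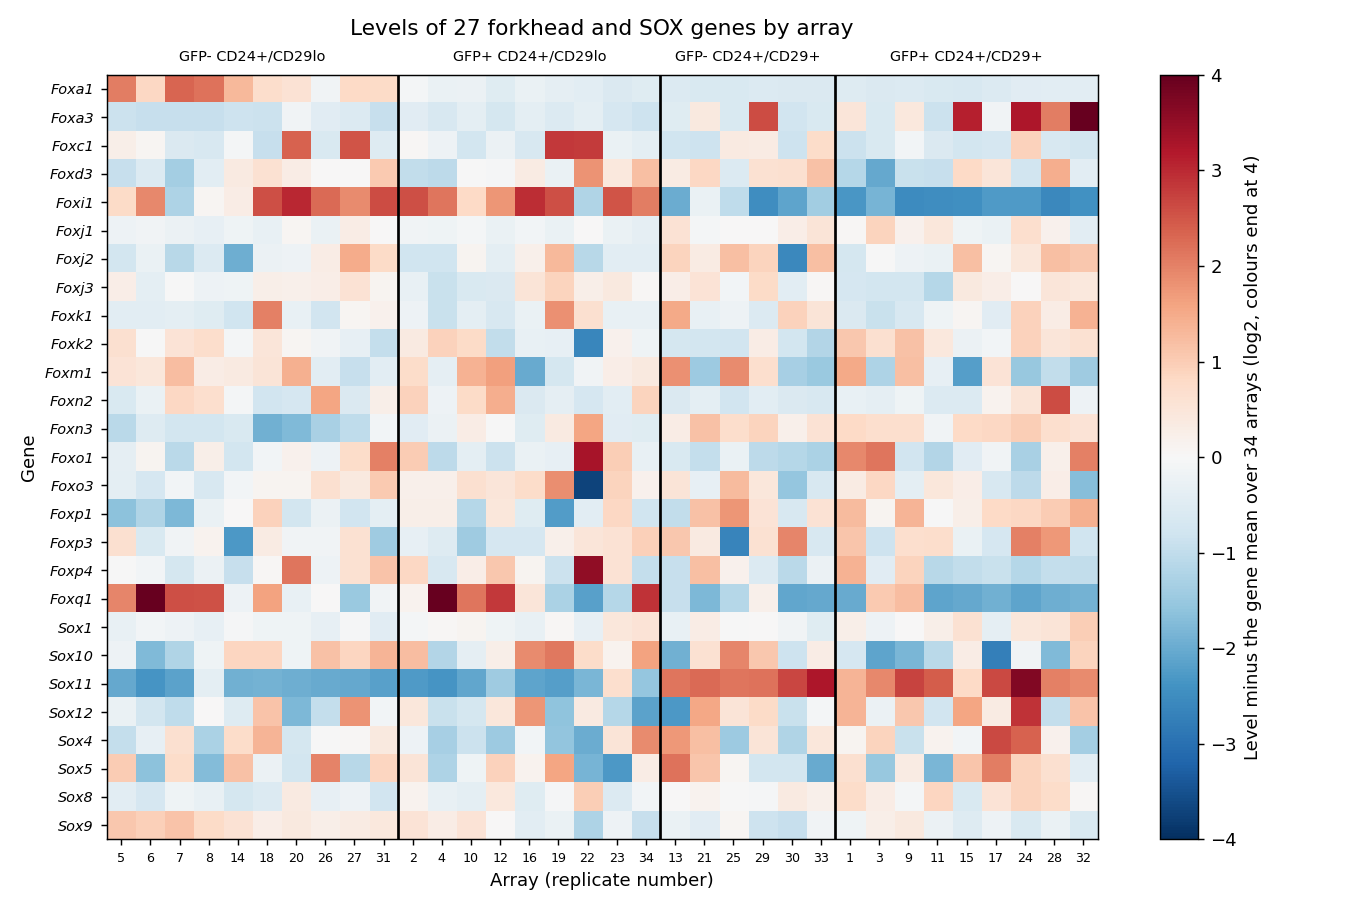
Level of each of the 27 genes detected on most arrays of at least 1 group, minus the gene's mean over the 34 arrays (log2), with arrays in columns by group and replicate number. Sox11 separates the CD24+/CD29+ arrays, Foxi1 the CD24+/CD29lo arrays other than replicates 7 and 22, and Foxa1 the GFP- CD24+/CD29lo arrays other than replicate 26.

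Foxq1, an epithelial forkhead factor, spread widely within groups, and had the largest SD of the members in both CD24+/CD29lo groups (1.72 and 2.39). It was 5.09 to 10.57 (log2, median 7.39, detected on 9 of 10) in GFP- and 4.42 to 11.66 (median 7.06, detected on 8 of 9) in GFP+ CD24+/CD29lo cells, and 4.50 to 6.77 (detected on 3 of 6) and 4.47 to 7.81 (detected on 2 of 9) in CD24+/CD29+ cells. The compartment differences of -2.35 (SE 0.88) and -2.31 (SE 0.80) did not pass (adjusted p = 0.0866 and 0.0628). The array set moved with it, since GFP- CD24+/CD29lo arrays averaged 9.34 in the earlier and 6.49 in the later set, and GFP+ CD24+/CD29lo arrays 9.13 and 6.34. Foxc1, a mesenchymal and epithelial developmental factor, had group means of 4.88 to 5.68 and was not called.

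FOXO genes themselves were not called. Foxo3 was detected on 33 of 34 arrays, with group means of 8.10 to 8.44, and Foxo1 on 23, with group means of 4.93 to 6.07. Neither was called in any comparison. Of 21 measured FOXO targets, 2 rose and 2 fell in CD24+/CD29+ against CD24+/CD29lo cells without GFP, and 1 rose and 2 fell with GFP, beside 13.0% and 12.9% of all genes called. Txnip, an inhibitor of thioredoxin, fell in both (-1.94 and -2.20), and Klf4 rose in both (0.57 and 1.02). Fbxo32, a ubiquitin ligase of muscle atrophy, rose (1.90) and Klf2 fell (-0.92) among GFP- cells, and Cat, catalase, fell (-1.16) among GFP+ cells. No target was called with GFP in either compartment. Of 9 measured AKT and SGK pathway genes, Pik3cb, a catalytic subunit of phosphatidylinositol 3-kinase, was the single call, lower in GFP+ CD24+/CD29+ than GFP+ CD24+/CD29lo cells (-1.19, adjusted p = 5.34e-05).

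Foxm1 was detected on 29 of 34 arrays with means of 7.02 ± 0.73 (SD, n = 10) in GFP- and 6.85 ± 1.11 (n = 9) in GFP+ CD24+/CD29lo cells, and 6.74 ± 1.64 (n = 6) and 6.22 ± 1.31 (n = 9) in CD24+/CD29+ cells. It passed in no comparison. Its mitotic targets, 16 tested in CD24+/CD29lo cells, gave 1 call with GFP, where 1.47% of all genes were called. Cenpf, a centromere protein, fell by 1.02 (SE 0.20, adjusted p = 0.0107). The list's median was -0.58, beside -0.004 for all genes. In CD24+/CD29+ cells that median was 0.29, beside -0.04 for all genes, with no call. Cenpf was also the single call of 16 between the GFP+ compartments, where 12.9% of all genes were called. It was higher in CD24+/CD29+ cells (1.04, adjusted p = 0.00787). For the difference of the GFP effect Cenpf was again the single call (-1.91, adjusted p = 0.0228), where 0.414% of all genes were called.

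No forkhead or SOX gene was called between GFP+ and GFP- CD24+/CD29+ cells. Of 49 members tested by limma, 0 passed, where 0.0521% of all genes did (8 of 15348), and 2 had an unadjusted p under 0.05, where 9.61% of all genes did. These were Foxk2, a forkhead factor of metabolism and autophagy, at 1.21 (SE 0.25, adjusted p = 0.246), and Foxi1 at -0.77 (SE 0.26, adjusted p = 0.547). Foxk2 was 7.88 to 9.37 (log2, median 8.35) in GFP- and 8.87 to 10.27 (median 9.69) in GFP+ cells. GFP- CD24+/CD29+ cells were only in the later array set, while the GFP+ group holds 4 earlier arrays, with a Foxk2 mean of 9.92, and 5 later ones, with a mean of 9.43. A second Foxk2 probe was higher in GFP+ CD24+/CD29+ than GFP+ CD24+/CD29lo cells (1.21, adjusted p = 0.00912), and so was 1 of the 6 Foxj3 probes (0.54, adjusted p = 0.0308).

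**Figure D4:**
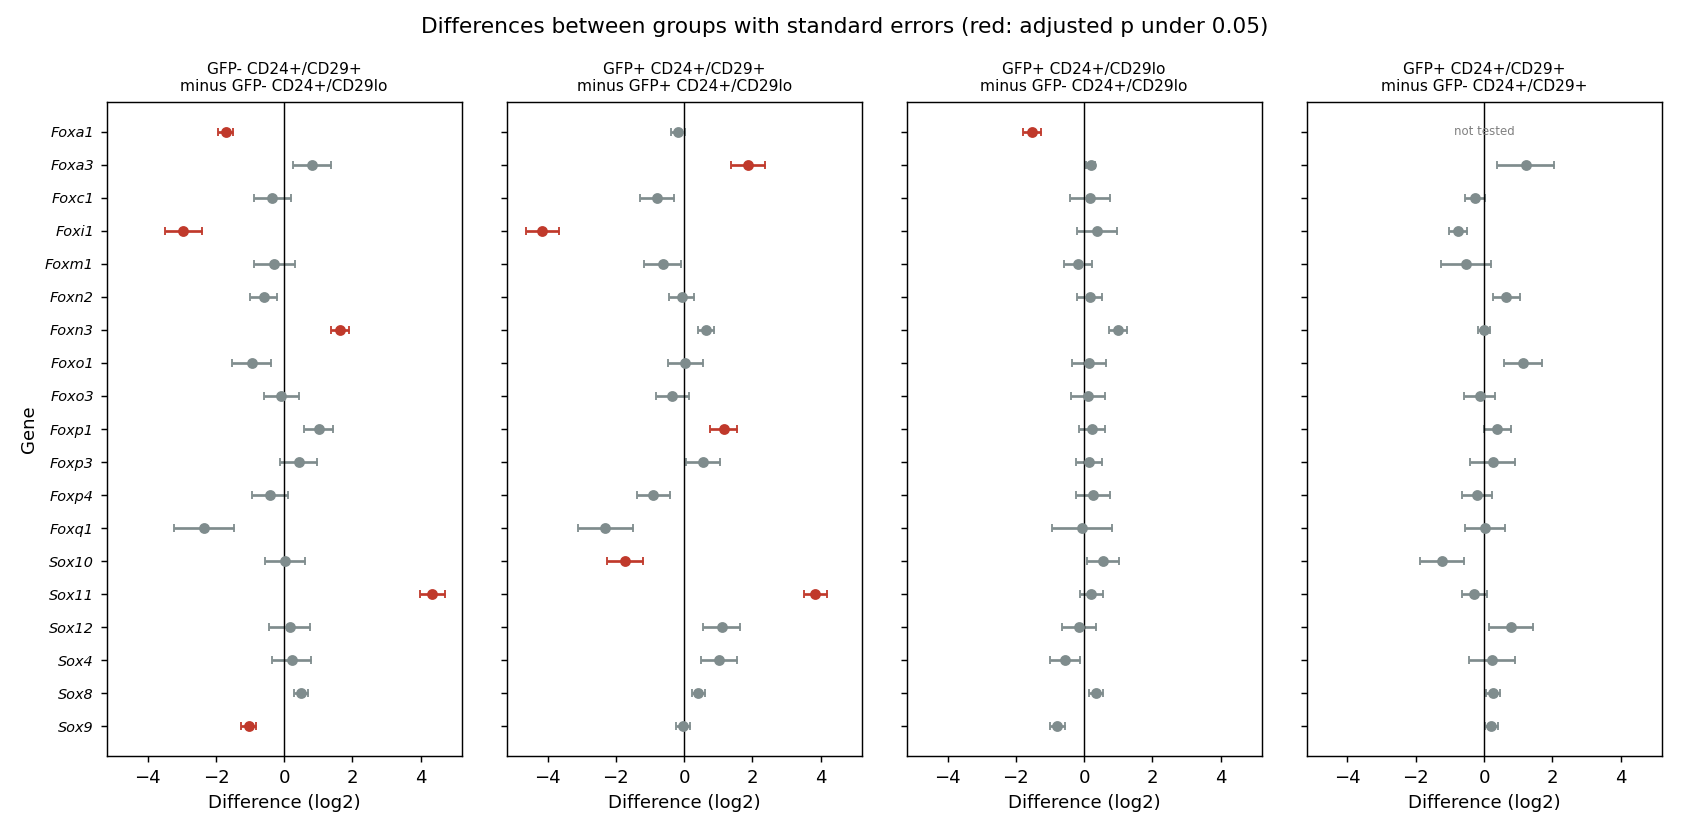
Difference between groups (log2) with its standard error for 19 named genes in 4 comparisons, red where the limma adjusted p over all probes is under 0.05. Foxi1 and Sox11 are red in both compartment comparisons, Foxa1 is the only red point for GFP in CD24+/CD29lo cells, and no point is red for GFP in CD24+/CD29+ cells, where Foxa1 was not tested.

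The basal compartment also carried regulators that act beside SOX and forkhead genes. Of 12 such genes of the basal and stem cell programs, 7 rose in GFP- and 6 in GFP+ CD24+/CD29+ cells and none fell. Of all genes, 6.65% and 6.74% rose. The list's medians were 1.65 and 1.10, beside 0.03 and -0.01 for all genes. Snai2, a repressor of the epithelial state (4.73 and 4.83), Id4 (4.24 and 3.75), Nrg1 (4.24 and 3.33) and Trp63, the p63 gene of basal epithelium (3.54 and 3.50), led the list. None of the 12 was called with GFP in either compartment.

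SOXF genes were rarely detected. Sox17 was detected on 2 arrays and Sox18 on 1, all GFP- CD24+/CD29+, and Sox7 on 9. Of 15 endothelial genes Tek, Emcn and Eng were detected on no array, while Ly6c1 was detected on 7, Cldn5 on 6 and Egfl7 on 6 of 10 GFP- CD24+/CD29lo arrays and Egfl7 on 5 of 9 arrays of each GFP+ group. The summed level was 8.52 to 9.58 (log2) over all arrays, and none was called in any comparison. Sox2, a pluripotency factor, was detected on 7 arrays with group means of 4.90 to 5.02. Foxd3, known from neural crest, was detected on 33 arrays with means of 6.47 to 7.36 and was not called.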

How the data were processed

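RNA from the 34 sorted samples was amplified and hybridized to Illumina mouse bead arrays. The deposited intensity values are the authors' probe signals on a linear scale, not normalized. Beside each, the authors deposited a fraction, 1 minus the detection p against negative control beads. A second deposited table holds normalized log2 expression from the authors, used to find the array sets and as an alternative. The study's methods state quantile normalization and an empirical Bayes correction for collection date, and the labels name R 2.14.1. Signals were background-corrected, quantile-normalized and log2-transformed with limma 3.58.1 (neqc, offset 16, under R 4.3.3), taking all 34 arrays together or, for GFP within a compartment, its 19 or 15 arrays alone. A probe was tested if, in at least 1 group of the fit, at least 80% of arrays placed it above their own 20th percentile. Fits across compartments held all 4 groups, so a group outside the comparison could admit a probe. Tests were two-sided moderated tests of limma, Benjamini-Hochberg adjusted over all probes kept, threshold 0.05, and were tested on simulated data. The number of arrays limits the precision.

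The platform table gave 34885 of 45281 probes 1 symbol and 18 several. The members, the 14 gene lists (182 genes, 169 with a probe) and the rule for named genes (every gene called, its subfamily and 14 fixed genes) were chosen with earlier results of these data known. Replicate numbers are unique to a sample. The settings varied were the background correction, the filter, the deposited processed values as input, the array set as a term or held fixed, other sets of arrays, the t-test of the methods, another probe per gene and leaving out each array.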

Additional observations from a re-analysis of the deposited data

Results flagged for a closer look

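Foxa1 was flagged because the effect of GFP differed between the compartments by the test of that difference, at -1.54 (log2). It was not detected in CD24+/CD29+ cells and passed the filter only through CD24+/CD29lo cells.

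The other results were flagged because 1 array lay far from the rest of its group, among 88 groups of values read. Chance flags about 1 group in 20, and 19 were flagged. In many flagged groups the gene was detected on few arrays, where a detected array stands apart from values at background. The flags are therefore not read as an excess over that rate. On GFP+ CD24+/CD29lo replicate 22, the array of lowest detected share, the level was 11.2 for Foxn3 (the nearest array was at 10.0), 9.11 for Foxo1 (6.81), 9.14 for Foxp4 (6.65) and 6.11 for Sox2 (5.02), while Foxo3 was at 4.57 (8.44) and was not detected there. On GFP- CD24+/CD29+ replicate 29, Foxa3 was at 8.04 (5.82) and Foxn4 at 5.84 (4.62). On GFP+ CD24+/CD29lo replicate 4, Foxi2 was at 6.55 (4.84) and Foxn4 at 5.82 (5.14). On GFP+ CD24+/CD29+ replicate 24, Foxc1 was at 6.23 (5.22) and Foxn4 at 6.12 (5.25), and on replicate 28 of that group Foxn2 was at 7.75 (5.67) and Sox2 at 5.82 (5.03). Foxi1 was at 5.28 (4.90) on replicate 3 and Foxn3 at 9.54 (10.2) on replicate 11 of the same group. Sox11 was at 6.42 (4.90) on GFP- CD24+/CD29lo replicate 8 and at 7.48 (5.37) on GFP+ CD24+/CD29lo replicate 23. Sox17 was at 7.68 (5.24) on GFP- CD24+/CD29+ replicate 30 and Sox8 at 5.71 (5.15) on GFP- CD24+/CD29lo replicate 20.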

How the results depend on the processing

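The 12 gene differences called kept their direction in all 346 values under other settings and stayed past the threshold in 316. The 30 that did not pass were 15 for Foxp1, 11 for Sox10 and 2 for Foxa3 between the GFP+ compartments, and 1 each for the 2 GFP values of Foxa1. Most of the 346 values came from fits that left out 1 array and share nearly all their data with the main fit. Values of the unadjusted t-test were held to the threshold by their unadjusted p. Without background correction every called difference was smaller, for GFP- and GFP+ cells 2.50 and 2.19 (log2) for Sox11 and -1.77 and -2.37 for Foxi1, and on the authors' processed values 2.44 and 2.21 for Sox11 and -1.90 and -2.36 for Foxi1. The count of members called between the GFP- compartments was 12 of 55 by the methods' t-test with no adjustment (25.0% of all genes), and 5 to 6 with 1 array left out. Between the GFP+ compartments it was 3 within the later set, 2 within the earlier set, 2 by the methods' t-test with Benjamini-Hochberg adjustment (11.0% of all genes) and 11 of 55 without (21.7%), and 3 to 7 with 1 array left out (3 without GFP+ CD24+/CD29lo replicate 16 or 34 or GFP+ CD24+/CD29+ replicate 28). For GFP in CD24+/CD29lo cells it was 2 on the authors' processed values, 2 with the array set as a term, 3 with all 34 arrays in 1 fit, 4 of 47 by the unadjusted t-test (10.7% of all genes) and 0 within the later set, and 1 with any array left out. For GFP in CD24+/CD29+ cells it was 2 of 49 by the unadjusted t-test (9.26% of all genes) and 0 with any array left out. The difference of the GFP effect gave 0 within the later set and 1 with any array left out. A set has fewer samples, and the cause of the other changes was not tested. No paired analysis was possible because the labels do not say which samples came from the same animal or sort. The replicate numbers only count the samples through the series. Foxa1, Foxa3 and the dimmer members lie near background, which limits their values, and no detection on an array does not show absence.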
